A study of Saccharomyces cerevisiae with 10 samples.

Results

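The comparison described here set yeast lacking *MED15* against yeast carrying the WY7 form of *MED15*, each represented by 2 messenger RNA libraries, so that 4 of the 10 libraries of the study were members, identified by their genotype labels. All strains belonged to the S288C laboratory background of *Saccharomyces cerevisiae* and fermented supplemented white grape juice in 5 mL cultures, 1 culture per library. The genotype of the deletion strain is labelled med15 deletion and that of the other strain WY7 MED15, an allele integrated into S288C. The other 6 libraries, 2 each from the strains LAB (genotype WT), WY15 and WY23, entered the shared estimate of spread and served for comparison. Every culture was collected at the point of 35% weight loss, which took 48 h for the deletion and about 37 h for WY7. The deletion and the later collection time therefore cannot be told apart in any result below, nor can the *URA3* gene, which was expressed in the deletion libraries only. The sources used here do not give the origin or sequence of the WY7 allele, or whether each strain is a single clone.

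Med15, also called Gal11, is a subunit of the tail module of Mediator, the complex that carries signals from DNA-bound activators to RNA polymerase II. Its activator-binding domains are known to contact Gcn4, which turns on amino acid synthesis, the general stress factors Msn2 and Msn4, the drug resistance factors Pdr1 and Pdr3, the fatty acid factor Oaf1 and the galactose factor Gal4. In grape juice, yeast takes up hexoses through a family of transporters and ferments them to ethanol, with glycerol, acetate and aroma compounds as side products, while it uses up ammonium and amino acids.

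A 42.7% share of the 6065 genes tested, 2590, differed between the deletion and WY7 (limma on log2(value + 1), Benjamini-Hochberg adjusted p under 0.05). Of these, 1339 (22.1% of those tested) were higher and 1251 (20.6%) lower in the deletion. The counts of gene lists below are to be read against these shares. Changes of at least 2-fold were found for 488 genes upwards (8.05%) and for 394 downwards (6.5%). The 2 deletion libraries lay wholly above or below the 2 WY7 libraries for 4563 genes (75.2%), with 37.9% of all genes tested above and 37.3% below, so a lack of overlap by itself is the common state here. Values are normalized counts, which are read counts divided by 1 size factor per library, and changes are log2 differences, deletion minus WY7, with standard errors (SE) from the fit. Depth was 25.8 and 26.1 M reads for the deletion and 22.7 and 23.1 M for WY7, within the 22.7 to 29.3 M of all libraries. In bulk RNA, fewer cells of a kind and less RNA per cell cannot be told apart.

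The changes went with the level of the gene in strains that carry *MED15*. Of the 100 most abundant genes, ranked by their mean in the 6 libraries outside the comparison, 0 were higher and 90 lower in the deletion, with a median log2 change of -1.60. They took 12.4% and 12.2% of all reads in the deletion libraries and 26.4% and 28.0% in WY7. Of the 2065 genes ranked lowest, 863 were higher and 185 lower, with a median of 0.33. All 6 ranking libraries carry *MED15*. Such a ranking in part favours falls among its top genes and rises among its lowest. The deletion libraries were not part of it. Because the size factors keep the median gene level, the summed normalized counts were lower in the deletion (20.9 and 20.8 M) than in WY7 (28.5 and 29.5 M). Scaling every library to the same sum moved the median of all genes up by 0.48 and gave 3576 genes higher (59% of those tested) and 439 lower (7.24%), while quantile normalization gave 1299 (21.4%) and 1269 (20.9%). Under quantile normalization the 100 most abundant genes split into 12 higher and 48 lower. Falls of abundant genes below are therefore given with their quantile value where that value ends or turns the call.

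**Figure D1:**
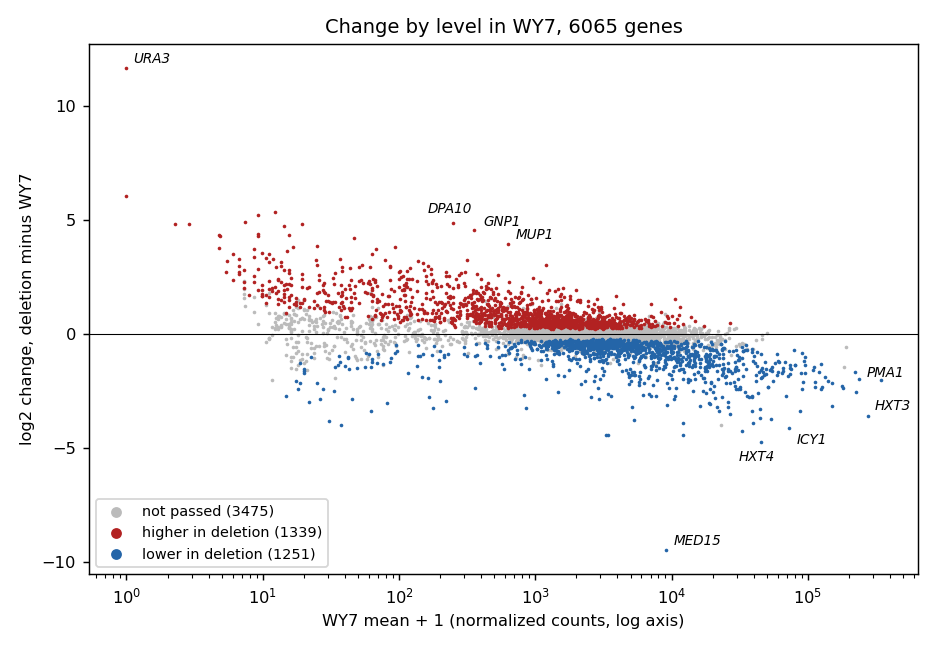
Change of each of the 6065 genes (vertical axis, log2 difference, deletion minus WY7) against its WY7 level (horizontal axis, mean of the 2 libraries plus 1 in normalized counts, log axis), with genes past the test coloured by direction. Genes of low level lie mostly above 0 and genes of high level below it. The WY7 level enters both axes, so a downward tilt is in part built in. *URA3*, with 0 reads in WY7, is drawn at its fitted value, which is no measured fold.

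*MED15* itself checked the labels. It had 12.1 and 11.9 normalized counts in the deletion libraries and 9497 and 8837 in WY7 (log2 change -9.46, SE 0.08, adjusted p = 1.6e-10). The WY7 level lay inside the range of the other *MED15* strains, 8238 to 10958. The gene lies on chromosome XV at 234940 to 238185 (R64 coordinates). *URA3* makes an enzyme of pyrimidine synthesis and often serves as a selection marker. It had 3213 and 3214 normalized counts in the deletion and 0 reads in both WY7 libraries. Set against a floor of 3 reads per library, its level was at least 839-fold higher in the deletion, a bound that covers counting error only. *URA2*, the enzyme at the entry of the same pathway, fell from 8962 and 8943 in WY7 to 3849 and 3746 in the deletion (log2 change -1.24, SE 0.14, adjusted p = 0.00036). Of the 11 pyrimidine genes tested, 2 were higher (1 without deletion replicate 1, WY7 replicate 1 or WY7 replicate 2) and 1 lower.

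The other Mediator genes had log2 changes from -0.94 to 0.70. Of the 5 tail genes tested besides *MED15*, 1 was higher and 3 lower. *MED2*, whose product sits beside Med15 in the tail, had 4555 and 3684 normalized counts in the deletion and 9350 and 6568 in WY7 (log2 change -0.94, SE 0.18, adjusted p = 0.0038), although with all libraries scaled to the same sum its adjusted p was 0.052. *SSN2*, of the kinase module, rose from 1491 and 1419 to 2299 and 2426 (log2 change 0.70, SE 0.09, adjusted p = 0.00062). Of the 15 head and middle genes, 2 were higher and 2 lower, and of the 4 kinase module genes 2 were higher. Apart from *MED2*, *PGD1* and *SSN2*, each of these calls was lost without at least 1 of the 4 libraries, with highest adjusted p values of 0.051 to 0.23.

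Among the genes of activators known to bind Med15, 2 of 10 were higher (1 without deletion replicate 1 or WY7 replicate 2), 1 was lower and 7 did not pass. *MSN4*, a stress activator, had 6207 and 4970 normalized counts in the deletion and 34506 and 24770 in WY7, a fall of 5.26-fold (log2 change -2.40, SE 0.21, adjusted p = 0.00012). Its partner *MSN2* had 4397 and 4584 against 4125 and 4880, which did not differ beyond the spread (log2 0.00, SE 0.13). The list of 10 is wider than the contacts of Med15 named above, since it also holds *PIP2*, *HSF1* and *INO2*. *PIP2*, the partner of Oaf1 in the response to fatty acids, rose from 3113 and 2612 to 4764 and 4627 (log2 change 0.72, SE 0.12, adjusted p = 0.0022). *GCN4* had 35289 and 35088 in the deletion and 39369 and 44192 in WY7 (log2 -0.25, SE 0.15, adjusted p = 0.23), and under quantile normalization its log2 change was 1.12. These are transcript levels. Gcn4 is known to be controlled largely in translation, which the libraries do not measure. *PDR1*, *GAL4* and *HSF1* also did not pass, with log2 changes of 0.18, 0.32 and 0.11.

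The genes with the largest changes included genes of sugar and amino acid uptake, sporulation, ion transport and stress. Leaving aside unnamed or weakly expressed genes and those whose libraries overlapped, the rises were led, after *URA3*, by *ENA1*, a sodium pump gene, with 536 and 474 normalized counts in the deletion and 12.6 and 10.2 in WY7 (log2 change 5.36, SE 0.55, adjusted p = 0.00024). *ENA1* shares near-identical sequence with neighbouring copies, so reads may be assigned to the wrong copy. *DPA10* had 8169 and 6227 in the deletion and 244 and 250.1 in WY7 (log2 change 4.85, SE 0.19, adjusted p = 7.9e-06). It lies on chromosome XII at 746848 to 747111, and *CDA2*, which encodes a chitin deacetylase of the spore wall and rose by 28.2-fold, lies on the same chromosome at 747937 to 748875. With the same genes left aside, the falls were led, after *MED15*, by *HXT4*, *AQY1* and *HXK1*. *AQY1*, a water channel gene, had 271 and 65.3 in the deletion and 4785 and 1765 in WY7 (log2 change -4.44, SE 0.71, adjusted p = 0.0018). Its replicates differed widely in both strains, and its change was between -5.45 and -3.42 when 1 of the 4 libraries was left out. *ICY1* fell from 66801 and 78920 to 4686 and 3747, with replicates close together (log2 change -4.11, SE 0.15, adjusted p = 6.6e-06). *YCT1*, a cysteine transporter gene, fell from 46149 and 43216 to 6064 and 3400 (log2 change -3.30, SE 0.24, adjusted p = 5.6e-05).

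**Figure D2:**
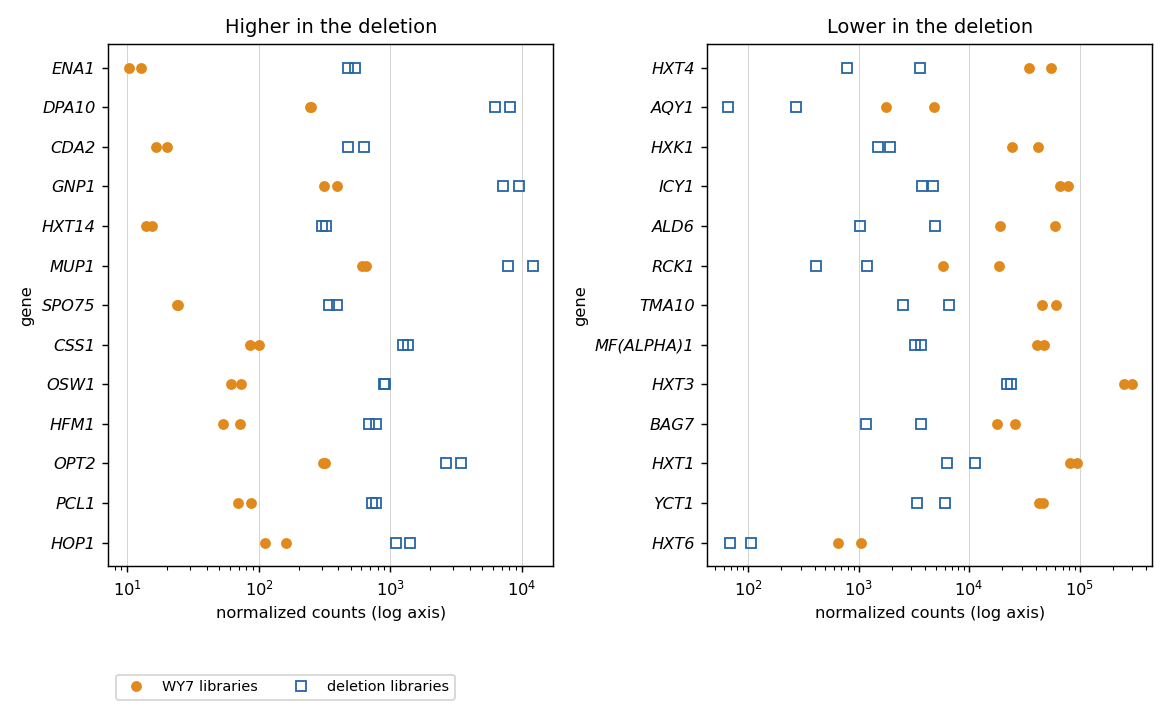
Normalized counts (horizontal log axes) in each WY7 library (filled circles) and each deletion library (open squares) for the 13 genes with the largest rise (left) and the 13 with the largest fall (right), *MED15* and *URA3* left out. The 26 genes were chosen to have no overlap between the strains; the replicates of *HXT4*, *AQY1*, *ALD6* and *RCK1* lie far apart.

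Hexose transporter genes showed some of the largest falls. Of 14 hexose transporter genes tested, 5 were lower and 2 higher, and without any 1 of the 4 libraries the lower ones numbered 5 to 6. *HXT3*, a low-affinity transporter and among the most abundant transcripts of WY7, had 23733 and 22188 normalized counts in the deletion and 251673 and 299033 in WY7, a fall of 12.0-fold (log2 change -3.58, SE 0.21, adjusted p = 2.6e-05). *HXT1*, the other main low-affinity transporter, fell from 81418 and 93879 to 11417 and 6336 (log2 change -3.36, SE 0.26, adjusted p = 7e-05). Both deletion libraries were far below both WY7 libraries for these genes. *HXT4* had 3571 and 787 in the deletion and 55246 and 34800 in WY7 (log2 change -4.71, SE 0.63, adjusted p = 0.00072). Leaving out deletion replicate 1 or 2 gave -5.80 or -3.62. *HXT2*, a transporter used at low glucose, had 8280 and 160.0 in the deletion and 37288 and 8758 in WY7. Its libraries were separate, but the deletion replicates lay so far apart that the test was not passed (log2 -3.97, SE 1.59, adjusted p = 0.077). *HXT6* fell as well (log2 -3.26, SE 0.55), with the limit that it is near-identical to another transporter gene. In the opposite direction, *HXT14* rose from 13.8 and 15.3 to 324 and 303 (log2 change 4.34, SE 0.33, adjusted p = 6.6e-05), levels far below those of *HXT1* and *HXT3* in every library.

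The glucose signalling genes, some of which control these transporters, showed 6 lower and 1 higher of 16. Under quantile normalization 5 were lower and 3 higher (median -0.05), and with equal sums 3 were lower and 7 higher. *MTH1*, a co-repressor of *HXT* genes, had 2718 and 1760 normalized counts in the deletion and 23535 and 14460 in WY7 (log2 change -3.08, SE 0.27, adjusted p = 0.00013). *MIG2*, which encodes a glucose-induced repressor, fell from 27903 and 23676 to 4238 and 1848 (log2 change -3.20, SE 0.34, adjusted p = 0.00025), with values of -3.80 and -2.60 without deletion replicate 1 and 2. *MIG1*, the main repressor of glucose-repressed genes, fell less (log2 -1.37, SE 0.14, adjusted p = 0.00024). *RGT2*, the sensor of high glucose, rose from 1799 and 2136 to 3239 and 3988 (log2 change 0.87, SE 0.13, adjusted p = 0.0014).

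Most glycolysis genes fell. Of 17 genes tested, 15 were lower and 0 higher, the median log2 change was -1.36 where the median of all genes was -0.00, and 12 were lower without any 1 of the 4 libraries. Under quantile normalization 7 were lower and 1 higher, with a median of -0.41. *HXK1*, the hexokinase isoform made when glucose is scarce, had 1918 and 1493 normalized counts in the deletion and 41931 and 24227 in WY7 (log2 change -4.23, SE 0.41, adjusted p = 0.00016). *HXK2*, the isoform made on glucose, had 8059 and 4429 and 7691 and 7619 and did not pass (log2 -0.36, SE 0.34). *CDC19*, the main pyruvate kinase, fell from 140123 and 158744 to 31809 and 36469 (log2 change -2.13, SE 0.23, adjusted p = 0.00031). *ENO1*, an enolase, fell from 129814 and 152084 to 32603 and 35766 (log2 change -2.04, SE 0.22, adjusted p = 0.00027). *TDH1*, a glyceraldehyde-phosphate dehydrogenase isoform, fell from 150965 and 203033 to 33632 and 39118 (log2 -2.27, SE 0.31), but under quantile normalization its change of -0.61 had an adjusted p of 0.063.

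The steps to ethanol and acetate followed for some enzymes only: 7 of 19 genes were lower and 4 higher, against 20.6% and 22.1% of all genes. The number higher was 1 without deletion replicate 1 or WY7 replicate 2. *PDC1*, the main pyruvate decarboxylase, had 17820 and 19324 normalized counts in the deletion and 50808 and 56518 in WY7 (log2 change -1.53, SE 0.15, adjusted p = 0.00016). *ADH1*, the alcohol dehydrogenase that makes ethanol, fell from 107319 and 119455 to 27667 and 25014 (log2 change -2.11, SE 0.24, adjusted p = 0.00037). *ADH2*, which oxidizes ethanol, had 833 and 154 and 1109 and 495. Its libraries overlapped and it did not pass (adjusted p = 0.31). *ALD6*, the cytosolic acetaldehyde dehydrogenase that makes most acetate, had 4917 and 1022 in the deletion and 59839 and 18838 in WY7 (log2 change -3.90, SE 0.79, adjusted p = 0.0051). Its replicates were more than 2-fold apart in both strains, and leaving out 1 of the 4 libraries gave between -5.04 and -2.77. *ALD5*, a mitochondrial isoform, fell from 40482 and 52584 to 15728 and 13922 with close replicates (log2 change -1.64, SE 0.16, adjusted p = 0.00019). Of 13 genes in the aroma list, 7 were lower and 1 higher, against 3 and 3 under quantile normalization. Not all of them make higher alcohols or esters, since the list also holds *BDH1*, *BDH2*, *IAH1* and *ARO80*.

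**Figure D3:**
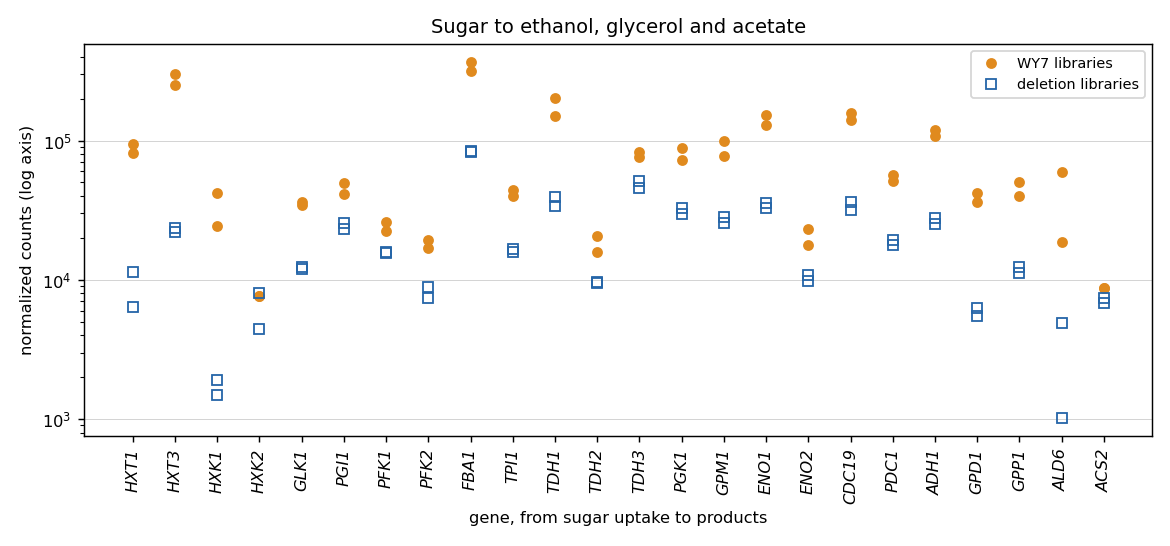
Normalized counts (vertical log axis) in each WY7 library (filled circles) and each deletion library (open squares) for 24 genes ordered from hexose uptake to ethanol, glycerol and acetate. Most genes are lower in both deletion libraries; *HXK2* and *ACS2* did not pass the test.

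Genes of glycerol, glycogen and trehalose also included many falls. Of 11 glycerol genes, 7 were lower, 0 higher and 4 did not pass, and the number lower was 4 without deletion replicate 2. For these glycerol genes quantile normalization gave 5 lower and 1 higher, and equal sums gave 4 lower and 2 higher. *GPD1*, the enzyme that commits carbon to glycerol, fell from 41767 and 36446 to 5540 and 6257 (log2 change -2.73, SE 0.23, adjusted p = 0.00011), and *GPP1*, the phosphatase that completes it, from 40073 and 50412 to 11236 and 12417 (log2 -1.93, SE 0.18). Of 17 glycogen and trehalose genes, 9 were lower, 0 higher and 8 did not pass (median -1.03), and 6 to 7 were lower without 1 library. For the glycogen and trehalose genes quantile normalization gave 7 lower and 2 higher, and equal sums gave 6 lower and 4 higher. *GSY2*, the main glycogen synthase, had 5729 and 5834 normalized counts in the deletion and 34621 and 26593 in WY7 (log2 change -2.39, SE 0.20, adjusted p = 0.0001). *UGP1*, which makes the UDP-glucose both polymers need, fell from 22688 and 18229 to 4704 and 3762 (log2 change -2.27, SE 0.26, adjusted p = 0.00037). The general stress genes, a group known as targets of Msn2 and Msn4, showed 14 lower and 0 higher of 19, median -1.26, and 10 to 14 without 1 library. Under quantile normalization 8 were lower and 2 higher. *TMA10* fell from 61032 and 45976 to 6576 and 2503 (log2 -3.71, SE 0.40), with changes of -4.40 and -3.01 without deletion replicate 1 and 2. *HSP26*, a small heat shock protein gene, fell from 110714 and 141650 to 21388 and 29849 (log2 change -2.31, SE 0.26, adjusted p = 0.00032). *SPI1*, a cell wall protein gene of the stationary phase, fell from 128781 and 121722 to 25431 and 21952 (log2 change -2.41, SE 0.18, adjusted p = 6.2e-05). Of 21 heat shock genes 4 were lower and 2 higher. The number lower was 1 without deletion replicate 1 or WY7 replicate 2, and under quantile normalization 1 was lower and 3 higher.

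The stress element AGGGG, searched on both strands from 350 to 51 bases before the coding start, was found in 88.2% of the windows of the glycogen and trehalose genes and 78.9% of those of the general stress genes, against 23.4% of all 5706 windows. It was in 41.2% of the windows of genes lower by at least 2-fold and in 14.8% of those higher by at least 2-fold. Of the 1336 genes with the element in their window, 27.2% were lower and 17.6% higher. Without it these shares were 19.3% and 22.9%. The median log2 change was -0.073 with the element and 0.006 without it, so the typical gene of each kind hardly moved. Here and below, shares by element use the calls of the main test, which depend on scaling for abundant genes. These shares are descriptions with no test, and a match does not show binding. The windows of *GSY2* and *UGP1* are shown from the R64 reference sequence, 5′ to 3′ on the coding strand, because these genes had the largest falls of their list. Capitals mark the element or its reverse complement.
GSY2, chrXII:660366-660665, plus strand: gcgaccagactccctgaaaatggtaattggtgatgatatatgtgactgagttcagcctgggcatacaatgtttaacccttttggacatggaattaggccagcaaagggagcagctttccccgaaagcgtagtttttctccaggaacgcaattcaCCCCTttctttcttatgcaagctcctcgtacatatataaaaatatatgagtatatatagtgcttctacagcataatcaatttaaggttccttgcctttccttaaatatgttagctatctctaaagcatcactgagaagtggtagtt
UGP1, chrXI:369541-369840, plus strand: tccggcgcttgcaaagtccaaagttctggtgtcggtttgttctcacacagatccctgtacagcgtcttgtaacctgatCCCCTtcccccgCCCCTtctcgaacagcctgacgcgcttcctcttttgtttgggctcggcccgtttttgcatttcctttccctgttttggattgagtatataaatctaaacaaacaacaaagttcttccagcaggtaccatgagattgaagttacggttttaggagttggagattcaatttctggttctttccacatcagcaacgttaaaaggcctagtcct

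Genes for the use of non-sugar carbon moved the other way, in part. Of 18 genes of peroxisomal fatty acid breakdown, 10 were higher and 1 lower, median 0.65, and 9 to 10 were higher without 1 library. *POT1*, the thiolase of that pathway, rose from 169.7 and 126 normalized counts in WY7 to 1380 and 1182 in the deletion (log2 change 3.12, SE 0.17, adjusted p = 2.2e-05). *SPS19*, a dienoyl-CoA reductase, rose from 982 and 945 to 5265 and 5172 (log2 change 2.44, SE 0.12, adjusted p = 1.8e-05). *CTA1*, the peroxisomal catalase, rose from 925 and 675 to 3609 and 3046 (log2 2.07, SE 0.18). *ADR1*, an activator of fatty acid and ethanol use, rose from 1071 and 1095 to 5422 and 4974 (log2 change 2.26, SE 0.13, adjusted p = 2.6e-05). In the list of glyoxylate cycle and gluconeogenesis genes, which also holds *ADR1*, 5 of 15 were higher and 1 lower. Under quantile normalization 7 were higher and 2 lower, and with equal sums 12 were higher and 1 lower. In the main test the enzymes of the list did not rise together. *ICL1* had 2805 and 2572 in the deletion and 3239 and 2974 in WY7, and *FBP1* and *PCK1* overlapped between the strains. *MLS1* had 4561 and 4062 in the deletion and 3102 and 3109 in WY7. *ICL1*, *FBP1*, *PCK1* and *MLS1* were chosen outside the rule for named genes. *SFC1*, a mitochondrial succinate-fumarate carrier, rose by 7.04-fold to 1290 and 898 (log2 change 2.81, SE 0.23, adjusted p = 0.0001), and *SIP4*, an activator of gluconeogenesis, rose to 2473 and 1926 from 714 and 700.5 (log2 1.62, SE 0.15). *ADY2*, an acetate transporter gene, fell to 252 and 59.7 from 1057 and 582 (log2 -2.66, SE 0.61), with an adjusted p of 0.063 without WY7 replicate 1 and changes of -3.69 and -1.64 without deletion replicate 1 and 2.

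Of 34 nuclear genes of the respiratory chain and ATP synthase, 15 were higher and 2 lower (median 0.34), and the number higher was 8 without deletion replicate 2 and 9 without WY7 replicate 2. Under quantile normalization 27 were higher. *CYC1*, the aerobic cytochrome c, rose from 141 and 70.2 to 734 and 465 (log2 change 2.54, SE 0.47, adjusted p = 0.0034), and *ATP16*, an ATP synthase subunit, from 3103 and 3088 to 5770 and 6177 (log2 change 0.95, SE 0.11, adjusted p = 0.00033). *COX5B*, the subunit isoform used at low oxygen, fell from 18555 and 21749 to 7048 and 8343 (log2 change -1.39, SE 0.13, adjusted p = 0.00016). Of the 5 *HAP* genes, which encode activators of respiration, 4 were lower and 0 higher. *HAP4*, the regulated subunit of the CCAAT-binding complex, had 5019 and 4504 in the deletion and 18575 and 14294 in WY7 (log2 change -1.78, SE 0.26, adjusted p = 0.0011). Mitochondrially encoded genes are listed at 0 in every library and are not described.

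Nitrogen catabolite repressed genes, which are switched off while good nitrogen sources last, formed a large group of falls. Of 30 tested, 20 were lower and 4 higher (median -1.23), with 16 to 18 lower without 1 library. The number higher was 2 without deletion replicate 1, WY7 replicate 1 or WY7 replicate 2. *MEP2*, the high-affinity ammonium transporter, had 18919 and 15114 normalized counts in the deletion and 147695 and 153434 in WY7, a fall of 8.90-fold (log2 change -3.15, SE 0.19, adjusted p = 2.8e-05). *DAL3* and *DAL7*, genes of allantoin breakdown, fell from 9176 and 9222 to 1019 and 1140 (log2 change -3.09, SE 0.16, adjusted p = 1.8e-05) and from 23773 and 27991 to 3490 and 3031 (log2 -2.99, SE 0.21). *GAP1*, the general amino acid permease, fell from 54331 and 44622 to 18946 and 11527 (log2 change -1.74, SE 0.29, adjusted p = 0.0021). For each of these genes both deletion libraries lay below both WY7 libraries. *OPT2*, an oligopeptide transporter gene placed in the same list, rose from 318 and 307 to 3409 and 2659 (log2 change 3.26, SE 0.13, adjusted p = 8e-06). *GDH2*, which releases ammonium from glutamate, rose from 9409 and 9184 to 16271 and 16345 (log2 change 0.81, SE 0.09, adjusted p = 0.00038).

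The GATA site GATAAG, which the nitrogen regulators of this group are known to bind, was in 66.7% of the 30 windows of this list and in 14.5% of all 5706, and in 22.9% of those of genes lower by at least 2-fold. The windows of *MEP2* and *DAL3*, the largest falls of the list, are printed with the site on either strand in capitals.
MEP2, chrXIV:357103-357402, plus strand: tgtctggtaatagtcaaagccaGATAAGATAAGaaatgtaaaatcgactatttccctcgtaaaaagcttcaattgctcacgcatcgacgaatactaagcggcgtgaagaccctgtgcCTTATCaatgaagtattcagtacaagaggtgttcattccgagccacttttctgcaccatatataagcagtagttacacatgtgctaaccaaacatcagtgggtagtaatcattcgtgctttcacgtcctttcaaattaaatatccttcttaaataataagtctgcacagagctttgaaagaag
DAL3, chrIX:415668-415967, minus strand: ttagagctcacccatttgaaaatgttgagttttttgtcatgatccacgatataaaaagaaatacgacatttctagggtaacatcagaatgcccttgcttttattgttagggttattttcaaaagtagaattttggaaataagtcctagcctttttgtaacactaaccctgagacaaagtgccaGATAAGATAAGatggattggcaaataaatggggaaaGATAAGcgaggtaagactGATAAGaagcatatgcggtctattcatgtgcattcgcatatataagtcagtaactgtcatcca

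Of 19 amino acid permease genes tested, 6 were higher and 5 lower, near the 22.1% and 20.6% of all genes, and these counts were 5 to 6 and 5 without 1 library. *GNP1*, a glutamine permease, had 9538 and 7191 normalized counts in the deletion and 392 and 314 in WY7, a rise of 23.5-fold (log2 change 4.56, SE 0.38, adjusted p = 9.9e-05). *MUP1*, the high-affinity methionine permease, rose from 654 and 609 to 12174 and 7794 (log2 change 3.95, SE 0.42, adjusted p = 0.00027). *TAT1*, a tyrosine and branched-chain amino acid permease, rose from 1016 and 1384 to 9559 and 9701 (log2 change 3.02, SE 0.17, adjusted p = 2.1e-05). The other *MED15* strains ranged from 346 to 832 for *GNP1* and from 399 to 1161 for *MUP1*, all far below the deletion. The external amino acid sensing genes, which control several of these permeases, showed 4 lower (2 without deletion replicate 2, WY7 replicate 1 or WY7 replicate 2) and 0 higher of 7. *STP4*, a relative of the factors at the end of that pathway, fell from 35551 and 50457 to 6520 and 7791 (log2 change -2.57, SE 0.21, adjusted p = 0.0001).

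Several lists of amino acid synthesis genes held more lower than higher genes, in numbers that depended on scaling. Of 10 arginine genes 6 were lower and 0 higher, median -1.27, and 6 were lower without any 1 library, but 3 were lower and 1 higher under quantile normalization. *ARG3*, ornithine carbamoyltransferase, fell from 4736 and 6030 to 1845 and 1311 (log2 change -1.78, SE 0.23, adjusted p = 0.0006). Of 8 lysine genes 5 were lower and 1 higher. The number lower was 2 without deletion replicate 1, deletion replicate 2 or WY7 replicate 2 and 3 without WY7 replicate 1, and under quantile normalization 3 were lower and 2 higher, median 0.09. *LYS20*, homocitrate synthase, fell from 31423 and 40442 to 5507 and 5256 (log2 change -2.73, SE 0.16, adjusted p = 2.6e-05). Of 7 histidine genes 3 were lower and 0 higher, with *HIS4* falling from 52014 and 66236 to 17462 and 16302 (log2 change -1.80, SE 0.22, adjusted p = 0.0005). Of 11 branched-chain genes 8 were lower and 0 higher, median -1.02, whereas under quantile normalization 5 were higher and 0 lower, median 0.34. *LEU1*, an isomerase of leucine synthesis and one of the most abundant transcripts, had 69894 and 69108 in the deletion and 202291 and 238306 in WY7 (log2 -1.66, SE 0.22), and its change under quantile normalization was 0.16 (adjusted p = 0.55). The same scaling turned *GDH1*, glutamate synthesis from ammonium, from -0.87 to 0.57. *PCL5*, a Gcn4-induced cyclin that promotes the breakdown of Gcn4, fell from 62403 and 68109 to 21906 and 20600 (log2 change -1.62, SE 0.13, adjusted p = 0.0001). Not all targets of Gcn4 fell: of 19 purine genes 7 were higher and 1 lower, with *ADE4*, which opens the pathway, rising from 1215 and 1634 to 3929 and 3693 (log2 change 1.43, SE 0.17, adjusted p = 0.00039). The number of higher purine genes was 2 without deletion replicate 1 or WY7 replicate 2 and 4 without WY7 replicate 1.

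The Gcn4 site TGACTC was in all windows of the 10 arginine genes, 81.8% of the branched-chain, 85.7% of the histidine and 73.7% of the purine genes, against 8.3% of all windows. It was in 10.5% of the windows of genes lower by at least 2-fold and in 5.6% of those higher. Of the 475 genes with the site in their window, 25.9% were lower and 19.6% higher, against 20.7% and 21.9% without it. The median log2 change was -0.067 with the site and -0.004 without it. The windows of *HIS4*, which fell, and *MUP1*, which rose, both hold the site and are shown side by side for that reason, with matches on either strand in capitals.
HIS4, chrIII:68384-68683, minus strand: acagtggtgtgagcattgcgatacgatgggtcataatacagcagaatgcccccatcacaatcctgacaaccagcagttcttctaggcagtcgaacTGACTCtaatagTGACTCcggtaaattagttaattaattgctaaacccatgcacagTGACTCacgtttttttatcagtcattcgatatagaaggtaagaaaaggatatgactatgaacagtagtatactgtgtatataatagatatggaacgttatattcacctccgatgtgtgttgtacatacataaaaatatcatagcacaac
MUP1, chrVII:599067-599366, plus strand: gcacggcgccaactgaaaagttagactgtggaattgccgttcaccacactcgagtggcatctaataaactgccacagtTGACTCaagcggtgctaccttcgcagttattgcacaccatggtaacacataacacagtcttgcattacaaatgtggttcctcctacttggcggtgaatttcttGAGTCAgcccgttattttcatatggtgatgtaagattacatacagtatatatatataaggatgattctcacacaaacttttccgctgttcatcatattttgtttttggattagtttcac

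Many genes of sulfur assimilation and methionine also fell. Of 31 tested, 18 were lower, 2 higher and 11 did not pass (median -0.85), and 15 to 17 were lower without 1 library. *MET3*, the enzyme that activates sulfate, fell from 4682 and 5111 to 1630 and 1221 (log2 change -1.79, SE 0.14, adjusted p = 8.6e-05). *MET17*, which makes homocysteine, fell from 53805 and 67521 to 20990 and 17628 (log2 change -1.65, SE 0.16, adjusted p = 0.0002), with the limit that its gene overlaps another. *MET32*, a zinc finger activator of the pathway, fell from 3240 and 3006 to 973 and 822 (log2 change -1.80, SE 0.14, adjusted p = 8.4e-05). *STR3*, a cystathionine lyase, fell from 10799 and 15751 to 3439 and 2727 (log2 change -2.09, SE 0.23, adjusted p = 0.00034). Among 23 vitamin B1 and B6 genes 13 were higher and 3 lower, but 8 of the list share near-identical sequence. *THI4*, the abundant thiamine synthesis gene, fell from 166709 and 197603 to 35910 and 35356 (log2 change -2.35, SE 0.22, adjusted p = 0.00014).

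Sporulation genes formed a large group of rises. Of 24 genes of middle and late sporulation 19 were higher and 2 lower (median 1.78), and 18 were higher without any 1 library. *CDA2* had 625 and 472 normalized counts in the deletion and 20.1 and 16.6 in WY7 (log2 change 4.82, SE 0.26, adjusted p = 1.8e-05). *SPO75*, needed for spore formation, rose from 23.9 and 24.2 to 392 and 339 (log2 change 3.87, SE 0.43, adjusted p = 0.00032). *SPR3*, a sporulation septin, rose from 168 and 156 to 1166 and 1406 (log2 change 2.98, SE 0.15, adjusted p = 1.8e-05). *SPS100*, the most abundant gene of the list and picked out after its values were seen, fell from 16823 and 18362 to 4759 and 6768 (log2 change -1.63, SE 0.24, adjusted p = 0.0012). The summed level of the list was 21166 and 22909 in the deletion and 23734 and 25141 in WY7. Of 22 early meiosis genes 13 were higher and 0 lower, median 0.67, with 10 to 12 without 1 library, and 8 higher and 2 lower under quantile normalization. *HOP1*, a protein of the meiotic chromosome axis, rose from 161 and 111 to 1093 and 1403 (log2 change 3.20, SE 0.23, adjusted p = 5.9e-05), and *HFM1*, a meiotic helicase, from 71.6 and 53.6 to 769.5 and 683 (log2 change 3.53, SE 0.25, adjusted p = 5.3e-05).

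The core letters CACAAA of the middle sporulation element were in 83.3% of the windows of the late list, in 30.0% of those of genes higher by at least 2-fold and in 18.0% of all. The letters GCCGCC, the core of the URS1 element through which Ume6 acts on early genes, were in 45.5% of the early meiosis windows, 9.2% of those of genes higher by at least 2-fold and 5.8% of all. Of genes with CACAAA in the window 26.4% were higher, against 20.6% without it, and for GCCGCC 30.1% against 21.1%. The shares lower were 21.4% against 21.1% for CACAAA and 15.5% against 21.5% for GCCGCC. Median log2 changes with and without the letters were -0.003 and -0.009 for CACAAA and 0.077 and -0.011 for GCCGCC. Across all windows, matches of different elements shared bases in 25 (0.44%). One window of each list follows, with the match on either strand in capitals.
SPR3, chrVII:607213-607512, plus strand: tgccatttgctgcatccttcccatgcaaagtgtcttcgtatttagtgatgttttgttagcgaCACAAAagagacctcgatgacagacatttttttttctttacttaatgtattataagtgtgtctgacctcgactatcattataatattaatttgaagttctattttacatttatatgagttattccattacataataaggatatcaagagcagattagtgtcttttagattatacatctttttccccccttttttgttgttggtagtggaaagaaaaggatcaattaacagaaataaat
HOP1, chrIX:226252-226551, plus strand: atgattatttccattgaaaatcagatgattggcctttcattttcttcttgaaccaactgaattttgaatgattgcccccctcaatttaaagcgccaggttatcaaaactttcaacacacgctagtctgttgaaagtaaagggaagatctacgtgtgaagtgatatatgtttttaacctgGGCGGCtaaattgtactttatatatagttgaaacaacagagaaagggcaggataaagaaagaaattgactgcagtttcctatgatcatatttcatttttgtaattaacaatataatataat

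Mating type markers were checked beside these lists, since sporulation belongs to diploid cells. Of 13 haploid-specific genes 7 were higher and 2 lower. The number higher was 4 without deletion replicate 1 and 3 without WY7 replicate 2. Their summed level was 28595 and 26959 normalized counts in the deletion and 25908 and 26245 in WY7. Their part in the sporulation result was not tested. Of 4 alpha-cell genes 2 were lower (1 without WY7 replicate 2) and 1 higher. *MF(ALPHA)1*, the alpha pheromone gene, had 3255 and 3645 in the deletion and 41384 and 47503 in WY7 (log2 change -3.69, SE 0.15, adjusted p = 8e-06), while *STE3*, the a-factor receptor of alpha cells, had 2805 and 1599 and 2393 and 2752 and did not pass (adjusted p = 0.36). The a-cell genes summed to 3471 and 2913 in the deletion and to 2538 and 2212 in WY7, with 2 of 7 higher (1 without deletion replicate 1 or WY7 replicate 2).

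Cell surface genes differed by class. All 5 flocculin genes tested were higher in the deletion, 4 to 5 of them without 1 library and 3 under quantile normalization. *FLO11*, the adhesin of invasive growth and biofilms, rose from 333 and 346 to 855 and 823 (log2 change 1.30, SE 0.15, adjusted p = 0.00034). *FLO5* rose from 572 and 491 to 1070 and 1150 (log2 change 1.06, SE 0.12, adjusted p = 0.00037). Of 23 cell wall genes 12 were lower and 3 higher, but 9 and 8 under quantile normalization. *CWP1*, a mannoprotein gene, fell from 9425 and 4165 to 1479 and 710.2 (log2 -2.61, SE 0.44), with changes of -2.02 and -3.20 without WY7 replicate 1 and 2. The proton pump gene *PMA1* fell from 205322 and 242420 to 43340 and 35149 (log2 change -2.51, SE 0.23, adjusted p = 0.00013), while its minor relative *PMA2* rose from 713 and 565 to 3592 and 2608 (log2 change 2.27, SE 0.16, adjusted p = 5.6e-05). Of 22 iron genes 9 were higher and 1 lower. *SIT1*, a siderophore transporter, rose from 349 and 251 to 1888 and 1019 (log2 change 2.22, SE 0.27, adjusted p = 0.00048), and *FRE1*, a ferric reductase, from 571 and 494 to 1890 and 1695 (log2 change 1.75, SE 0.16, adjusted p = 0.00013). Among 17 targets of Pdr1 and Pdr3, 7 were lower and 4 higher (2 without deletion replicate 1 or WY7 replicate 2). *RSB1* fell from 3284 and 3926 to 474 and 632 (log2 change -2.71, SE 0.28, adjusted p = 0.00023), and the drug pump gene *PDR5*, with 6238 and 7068 against 5773 and 5319, did not pass (adjusted p = 0.19).

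Growth machinery was seldom called. For the ribosomal protein genes the median SE was 0.24, against 0.10 for the proteasome genes, so few calls do not show equal levels. Their sums were 1210680 and 732376.5 in the 2 WY15 libraries and 712753 and 970045 in the 2 LAB libraries. The spread of both pairs enters the SE. With equal sums 55 of 137 were higher, against 59% of all genes. Of 137 ribosomal protein genes 4 were higher and 0 lower, median 0.02, against a background of 42.7% called, with 2 to 3 higher without 1 library and 16 under quantile normalization. Of 44 ribosome assembly genes 1 was higher and 3 lower (1 without deletion replicate 1 or WY7 replicate 2). Of 32 proteasome genes 3 were higher (1 without deletion replicate 2 or WY7 replicate 1) and 3 lower (1 without deletion replicate 1 or WY7 replicate 2), but 11 and 0 under quantile normalization. The galactose genes, classical targets of Gal4, showed 3 higher (1 without deletion replicate 2) and 0 lower of 7. *GAL1* had 863 and 861 normalized counts in the deletion and 416 and 366 in WY7 (log2 change 1.14, SE 0.11, adjusted p = 0.00015), low levels in every library.

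**Figure D4:**
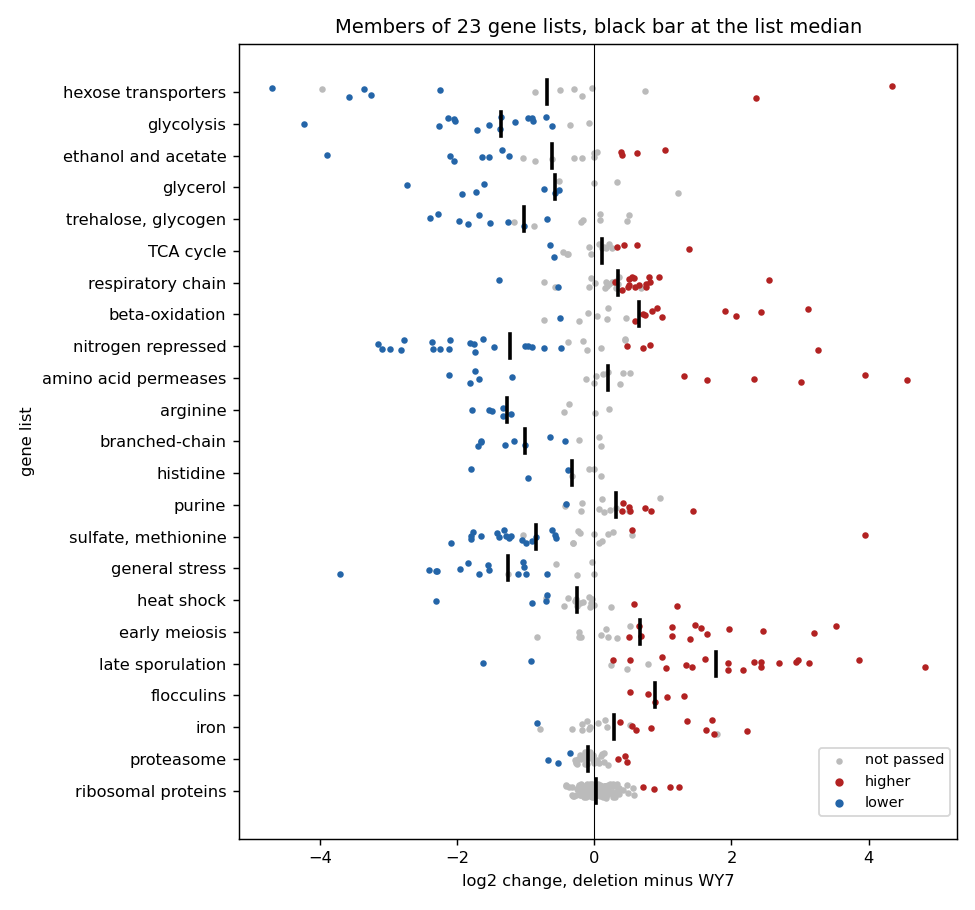
Log2 change (horizontal axis, deletion minus WY7) of every tested member of 23 gene lists, coloured where the gene passed the test, with a black bar at the median of each list. Glycolysis, nitrogen-repressed and general stress genes lie mostly below 0, late sporulation genes and flocculins mostly above, and ribosomal protein genes close to 0.

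The replicates of both strains differed in part in the same genes. The median absolute log2 difference between replicates was 0.12 in WY7 and 0.13 in the deletion, within the 0.08 to 0.20 of all strains. In WY7 109 genes were more than 2-fold apart and in the deletion 85, with 19 in both, which is 17.4% and 22.4% of these lists. Of the 19, 18 were higher in replicate 1 of both strains. They include *ALD6*, *HXT2*, *RCK1*, *CWP1*, *AQY1* and *ADH2*, picked out after their values were seen, whose changes in the comparison rest on distant replicates. Low-oxygen genes, which can report differences in aeration, summed to 108179 and 126978 normalized counts in the deletion and 224939 and 291232 in WY7, and the other strains covered 104157 to 286237. Of 20 low-oxygen genes 4 were higher and 5 lower, near the 22.1% and 20.6% of all genes. The number lower was 3 without deletion replicate 1 or WY7 replicate 1 and 2 without deletion replicate 2 or WY7 replicate 2. The sums of these low-oxygen genes were made up for the largest part by 1 gene, *OLE1*, which encodes a fatty acid desaturase. They therefore do not describe the list as a whole. *OLE1* had 58128 and 77999 in the deletion and 154017 and 216973 in WY7 and did not pass (adjusted p = 0.088). The part of oxygen in the results above was not tested.

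**Figure D5:**
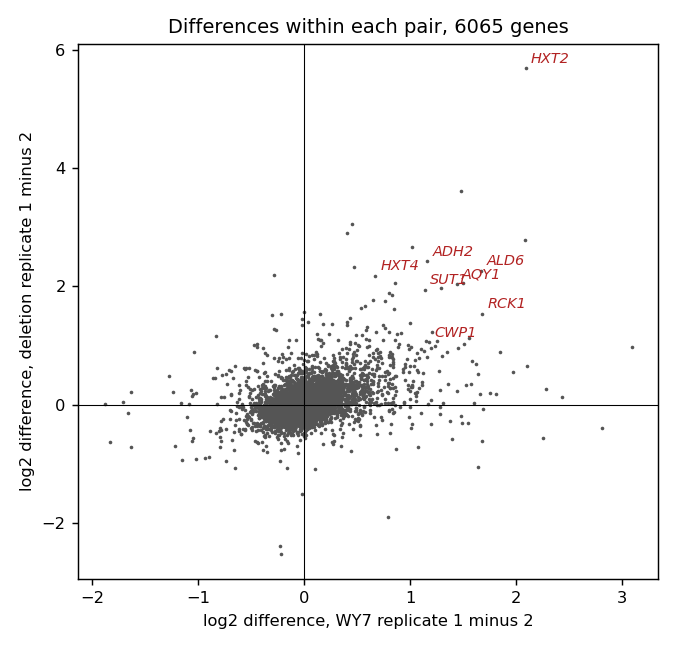
Difference between replicates 1 and 2 of WY7 (horizontal axis, log2) and of the deletion (vertical axis, log2) for each of the 6065 genes. *HXT2*, *ALD6*, *RCK1* and *AQY1* lie at the upper right, higher in replicate 1 of both strains.

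Whether the deletion differed from WY7 in another way than from the other *MED15* strains was tested directly as WY7 against the mean of LAB, WY15 and WY23, in which the deletion cancels. Limma called 0 of 6065 genes, with 458 (7.55%) at an unadjusted p under 0.05, edgeR called 0 and DESeq2 called 168. Both WY7 libraries lay above all 6 other *MED15* libraries for 256 genes and below all of them for 308, together 9.3% of the genes tested. Such an order also arises for some genes without any difference between strains, so it does not mark a trait of WY7. Several large falls started from such a high WY7 level: *MEP2* had 147695 and 153434 normalized counts in WY7 and 103068 to 129788 in the others, and *ICY1* had 66801 and 78920 against 49039 to 63559. For *MEP2* the log2 difference of WY7 to the others was 0.32 (SE 0.16, adjusted p = 0.66), small beside its fall of -3.15 in the deletion. *HSP30*, a plasma membrane stress protein gene, had 37464 and 54495 in WY7, 13940 to 33897 in the other *MED15* strains and 41925 and 46541 in the deletion. Its change in the deletion did not pass (log2 -0.03, SE 0.31), and its difference of WY7 to the others did not pass either (log2 0.98, SE 0.26, adjusted p = 0.57).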

How the data were processed

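Polyadenylated RNA was sequenced from 10 fermentations of 5 strains, 2 per strain, per the labels' protocols. Trim Galore, Bowtie2, featureCounts and DESeq2 are the tools, and sacCer3 and R64 the builds, listed in the submitters' processing notes; the sources used here give no versions, settings or strand use. The deposited values are a signal for each gene in each library: read counts that the authors divided by 1 size factor per library. All values of a library were whole multiples of 1 step (100% within 1e-06), which gave back the reads. In WY15 replicate 2 the step was so close to 1 that its reads were left out of the count tests.

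The members and gene lists were chosen with earlier results of these data known. Of 6600 identifiers, 5917 matched the R64 annotation; the 683 unmatched ones took at most 0.455% of the reads of a library and were tested without a name. Genes at least 97% identical to another over 150 bp (BLAST+ 2.17.0) and overlapping genes were marked. The main test, limma 3.58.1 in R 4.3.3, used log2(value + 1) of the 6065 genes with a mean of at least 10 over the 10 libraries, 1 fit of 5 strain means with a variance trend, 5 residual and 3.05 prior degrees of freedom, two-sided tests and Benjamini-Hochberg adjustment over all genes. The replicates are separate fermentations per the series' design text. The comparison of the deletion with WY7 and that of WY7 with the mean of LAB, WY15 and WY23 were tested. On simulated data with the spread of these libraries, 200 of 6065 genes were changed between the deletion and WY7. The 200 were drawn from genes with a WY7 mean of at least 50. The test called 100% of changes of 4-fold, 94% at 2-fold and 47.5% at 1.5-fold, with 11, 11 and 5 wrong calls. Each gene was drawn independently of the others, and far more genes were called in the real data.

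Named genes are *MED15*, *URA3*, the 14 highest and 14 lowest log2 changes among called genes that have a standard name, reach a mean of 50 and show no overlap of libraries, and from each list at most 4 called genes, by size of change, and 2 abundant ones that did not pass. Also open were *ADH1*, *ADH2*, *PDC1*, *GAP1*, *GNP1*, *MUP1*, *HXT1*, *HXT3*, *FLO11*, *GCN4*, the list of activators and the Mediator genes. Alternatives were edgeR 4.0.16 (quasi-likelihood) and DESeq2 1.42.0 on the reads of 9 libraries, quantile normalization, equal sums, a pseudocount of 5, no filter, a mean of at least 50, a fit of the 4 libraries, a replicate block and each library left out. Sequence windows were read from the R64 reference from 350 to 51 bases before the coding start, for 5706 genes, and were chosen with results known. Intervals and floors cover counting error only.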

Additional observations from a re-analysis of the deposited data

How the results depend on the processing

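Of 2590 calls between the deletion and WY7 (1339 higher, 1251 lower), the counts were 2872 by edgeR and 2856 by DESeq2, 2568 under quantile normalization, 2591 with a pseudocount of 5, 2624 with no filter, 2427 with a mean of at least 50 and 2679 with the 4 libraries alone. With equal sums 4015 genes were called, 3576 higher and 439 lower, which follows from the shift of the median of all genes by 0.48. Leaving out each library in turn gave 1730 to 2864 calls, 883 to 1470 higher and 847 to 1395 lower; without a library of the comparison a strain is left with 1 library, assumed to vary like the others. Without WY7 replicate 2 the number higher was 883. For WY7 against the mean of the other *MED15* strains, 0 by limma became 168 by DESeq2, and leaving out each library gave 0 to 1, the 1 without LAB replicate 2; the fit of 4 libraries cannot give this comparison. With the replicate number as a block 2429 genes were called, 1271 higher and 1158 lower; the correlations of replicate differences between strains ran from -0.50 to 0.41 (0.41 for WY7 and the deletion), so the numbers were not taken to pair the cultures. Named genes that passed the test and whose sign turned with equal sums had these log2 changes there: *PGD1* 0.10, *RGR1* 0.10, *NUT2* 0.20, *SSY5* 0.13, *PTR3* 0.15, *HIS2* 0.0875, *HMG2* 0.0204, *RRP8* 0.00486, *TIF3* 0.0844 and *HYP2* 0.0914. For such genes under quantile normalization the turned values were *BAT1* 0.70, *LEU1* 0.16, *ILV3* 0.58, *GLN1* 0.0486, *GDH1* 0.57, *CTF19* -0.0115, *YEF3* 0.21 and *HYP2* 0.10. The cause was not tested. Over all genes together, chi-square over degrees of freedom between replicates was 66.8 in WY7 and 49.7 in the deletion. Depth limits genes of few reads, such as *ENA1* and *HXT14* in WY7.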

Other observations

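Of 16 seripauperin genes tested, a family of cell wall proteins known from anaerobic growth, 11 were higher and 2 lower, but 10 of them share near-identical sequence, so single members cannot be told apart, and quantile normalization gave 7 and 2. Of 19 phosphate genes 7 were higher and 3 lower. The number higher was 4 without deletion replicate 1 and 3 without deletion replicate 2, WY7 replicate 1 or WY7 replicate 2 and 4 under quantile normalization. *SPL2*, a regulator of phosphate uptake, rose from 77.9 and 58.7 normalized counts in WY7 to 227 and 147 in the deletion (log2 change 1.42, SE 0.25, adjusted p = 0.0028). Of 17 inositol and phospholipid genes 5 were lower and 2 higher, with 3 to 4 lower and 0 higher without 1 library. *ITR1*, the main inositol transporter, fell from 25429 and 16832 to 9082 and 7120 (log2 change -1.36, SE 0.25, adjusted p = 0.0034). Of 10 histone genes 4 were lower and 1 higher, and *HTA1* fell from 13256 and 15695 to 7176 and 7539 (log2 change -0.97, SE 0.13, adjusted p = 0.00089). Of 24 sterol genes 3 were higher and 3 lower, but the number higher was 1 without deletion replicate 1 and 0 without deletion replicate 2 or WY7 replicate 1 and the number lower 1 without deletion replicate 1, deletion replicate 2 or WY7 replicate 2. Of 20 autophagy genes 4 were higher and 4 lower (2 without deletion replicate 2, WY7 replicate 1 or WY7 replicate 2). Of 21 oxidative stress genes 5 moved in each direction, with 3 without WY7 replicate 1 for the higher ones, but 9 up and 2 down under quantile normalization. For the autophagy and oxidative stress lists the counts in the main test were near the 22.1% higher and 20.6% lower of all genes. All changes are limma's, and no cause of these patterns was tested.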
